A study of Mus musculus with 23 samples.

Results

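PWD and B6 are inbred mouse strains of different subspecies, and the comparison described here set testicular gene expression in PWD males against that in B6 males. PWD was derived from wild Mus musculus musculus, whereas B6 is a classical laboratory strain of mainly Mus musculus domesticus ancestry. The 3 PWD arrays and 3 B6 arrays were taken by the strain in their titles and made up 6 of the 23 arrays of the study. Each array, an Affymetrix Mouse Gene 1.0 ST chip, carried total RNA from a pool of 4 testes of mice aged 14.5 days, whose spermatogenic cells had been isolated before lysis. The labels list no transgene, mutant allele or treatment for any group, and all mice had the same diet. They do not say whether the pools came from separate litters, so each p-value reflects only how far these pools spread, and that spread may be partly technical. The other arrays held crosses named, by convention, female first. PWDxPWK (2 arrays) crosses PWD with PWK, another strain of musculus origin, and B6xBALB/C (6 arrays) and BALB/CxB6 (3 arrays) cross laboratory strains. PWDxB6 (3 arrays) and B6xPWD (3 arrays) are the reciprocal hybrids of the strains compared here.

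In a mouse testis of this age the first wave of spermatogenesis is under way, with spermatogonia, early meiotic cells and the first pachytene spermatocytes beside Sertoli and interstitial cells. Pachytene cells switch on many genes for later sperm structure, so their transcripts depend strongly on how far the wave has advanced. Interferon response genes, another group described here, are transcribed when interferon receptors or sensors of foreign RNA are active, and many code for antiviral proteins or for the machinery that presents peptides on MHC molecules.

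Levels are the deposited log2 values, and a difference is PWD minus B6 on that scale, so that 1 unit is a doubling. Of 19661 genes with a single-symbol probe set, 14745 lay above a floor on dim signal and were tested with limma, a linear model fitted across all genes and all 23 arrays. The spread used in each test was pooled over all 7 genotypes, so arrays outside a comparison also set its standard errors and calls. A gene counted as called when its p, adjusted by Benjamini-Hochberg, was under 0.05. Array medians ranged from 6.13 to 6.28. The median standard deviation of a gene was 0.10 over the PWD arrays and 0.15 over the B6 arrays. Among markers on the array, 23 of 24 of spermatogonia, 27 of 30 of pachytene spermatocytes, 24 of 24 of Sertoli cells, 8 of 10 of Leydig cells and 10 of 17 of macrophages passed the floor, which 75% of all genes pass by construction. Signal over background is unknown, so these counts do not show which cell types were present. B6xBALB/C replicate 6 had the lowest pachytene list mean of its group, as described below. The array was designed on reference sequence, which is that of B6, and for any single gene a difference in the sequence its probes bind and a difference in RNA level cannot be told apart here. In these bulk samples fewer cells of a type and less RNA per cell cannot be told apart either.

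PWD and B6 testes differed in a large share of their genes, mostly by small amounts. Of the 14745 genes tested, 2719 were called (18.4%), 1533 higher in PWD (10.4%) and 1186 lower (8.04%), and 4578 had an unadjusted p under 0.05. The median size of a called difference was 0.51. Large differences were more often toward lower signal in PWD: 85 called genes were higher by more than 1 unit and 181 lower by more than 1 unit, and 9 were higher and 23 lower by more than 2 units. The median over all genes tested was 0.04, so the scale of the strains was close. The excess of genes called higher depended on the processing. It was 1315 higher and 1286 lower with each array centred on its autosomal median, and 1445 and 1387 with only the PWD and B6 arrays fitted. The 3 PWD and the 3 B6 arrays did not overlap for 5598 genes (38%), among them 2657 of those called. Among runs that left out a PWD or B6 array, the largest count of calls was 2341, without B6 replicate 2. The lowest was 1802, without PWD replicate 2.

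Called genes lay on every chromosome. Among autosomes their share ran from 14.6% on chromosome 14 to 22.2% on chromosome 13, with 18.4% over all of them. It was 18.8% on the X, where 53 genes were higher and 36 lower in PWD, and on the Y 2 of 8 genes tested were called. Of 118 microRNA genes tested, 6 were higher and 3 lower, beside 10.4% and 8.04% of all genes.

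The gene most raised in PWD was Vnn1, which codes for a pantetheinase that releases cysteamine and pantothenate. Its level was 9.99, 9.82 and 9.60 on the PWD arrays, against 6.92, 6.81 and 6.89 on the B6 arrays. Every PWD array lay far above every B6 array, and the difference was 2.93 (SE 0.142, adjusted p = 1.62e-12). Lgals3bp, a secreted glycoprotein that binds galectins, stood at 9.10, 9.08 and 9.15 in PWD and at 6.32, 6.58 and 6.48 in B6 (difference 2.65, SE 0.127, adjusted p = 1.62e-12). Kcnc2, a voltage-gated potassium channel best known from neurons, stood at 8.33, 8.31 and 8.31 in PWD and at 5.63, 5.82 and 5.61 in B6 (difference 2.63, SE 0.148, adjusted p = 1.68e-11). The PWD arrays were nearly identical to each other for both genes, and neither gene overlapped between the strains. Mx2, a dynamin-like GTPase induced by interferon, was at 7.24, 7.17 and 6.41 in PWD and at 4.73, 4.76 and 5.09 in B6, a difference of 2.08 (SE 0.209, adjusted p = 2.32e-07). PWD replicate 3 lay lowest of its group for this gene and still above all B6 arrays.

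Of 81 named genes, 12 had a strain mean below the floor of 5.125 on dim signal, B6 in the case of Mx2 (4.86), Scn3b (4.96) and Psmb8 (5.09). The floor is a percentile and not a detection limit, so how far such a mean lies above background is unknown, and the exact size of these differences is uncertain. With the dim mean set to the floor, the difference was 1.82 for Mx2, 1.86 for Scn3b and 1.49 for Psmb8.

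The other genes among the 12 most raised were varied in what they encode. Cadps (2.23), a factor for the release of dense-core vesicles, and Scn3b (2.02), a sodium channel subunit, are known mainly from neurons and endocrine cells. S100b (2.03) codes for a calcium-binding protein and Catspere2 (2.03) for a subunit of the CatSper calcium channel of sperm. Gask1a (2.19) and AU021092 (1.86) were also among them, with adjusted p = 1.09e-11 and adjusted p = 5.21e-06. The last pair was Tap2 (1.90) and Tap1 (1.85), described below with the other genes of antigen processing.

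The largest difference in value was that of Trim12a, a mouse relative of the primate restriction factor TRIM5, which blocks incoming retroviral capsids. Its level was 4.31, 3.87 and 4.23 on the PWD arrays, below the floor set for dim genes (5.125), and 8.62, 8.44 and 8.65 on the B6 arrays. The strains did not overlap, and the difference was -4.43 (SE 0.183, adjusted p = 1.4e-13), or -3.45 with the PWD mean set to the floor. Slc16a3, the lactate exporter MCT4, had 6.72, 6.79 and 6.82 in PWD, against 8.77, 9.77 and 9.67 in B6 (difference -2.63, SE 0.214, adjusted p = 9.28e-09). Bbox1, the last enzyme of carnitine synthesis, had 4.94, 4.95 and 5.15 in PWD, against 7.72, 7.29 and 7.89 in B6 (difference -2.62, SE 0.216, adjusted p = 1.05e-08). Both genes were lower on every PWD array than on any B6 array, and the spread between replicates was wider in B6. The PWD mean of Bbox1, 5.01, was below the floor, and with that mean at the floor the difference was -2.51. Also among the 12 lowest were 2610524H06Rik (-3.13), 1700006J14Rik (-2.65), 2610206C17Rik (-2.39) and Abca6 (-2.39), a lipid transporter of the ABC family. The PWD means of 1700006J14Rik (5.11) and Abca6 (4.89) were below the floor too.

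Adam2 and Crisp2, both on the list of pachytene genes, were also among the 12 lowest, with Adam5 and 2 further transcripts that are on no list. Adam2, the sperm surface protein fertilin beta, had 5.15, 5.71 and 5.40 in PWD and 7.71, 7.68 and 8.42 in B6 (difference -2.52, SE 0.543, adjusted p = 0.00231). Adam5, a related sperm protein, differed by -2.50 (adjusted p = 0.0136), and Crisp2, a protein of the acrosome and tail, by -2.43 (adjusted p = 0.0144). The standard errors, 0.690 for Adam5 and 0.676 for Crisp2, were several times those of Slc16a3 and Bbox1. The spread behind them is pooled over all 7 genotypes. Over the B6xBALB/C arrays the SD was 1.67 for Adam5 and 1.56 for Crisp2, beside 0.35 for Slc16a3 and 0.36 for Bbox1. In the same order it was 0.50, 0.59, 0.55 and 0.31 over the B6 arrays and 0.41, 0.07, 0.05 and 0.11 over the PWD arrays. The call of Adam5 was lost without PWD replicate 3 (adjusted p = 0.0586) or B6 replicate 3 (adjusted p = 0.0628), and that of Crisp2 without B6 replicate 3 (adjusted p = 0.0713). The transcripts 1700006A11Rik (-3.60, adjusted p = 0.000533) and Gm10619 (-3.07, adjusted p = 0.00114) had large standard errors as well, 0.666 and 0.613. The PWD means of Crisp2 (4.70), Adam5 (4.94) and Gm10619 (5.08) were below the floor, and with those means at the floor the differences were -2.0 for Crisp2, -2.32 for Adam5 and -3.02 for Gm10619.

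**Figure D1:**
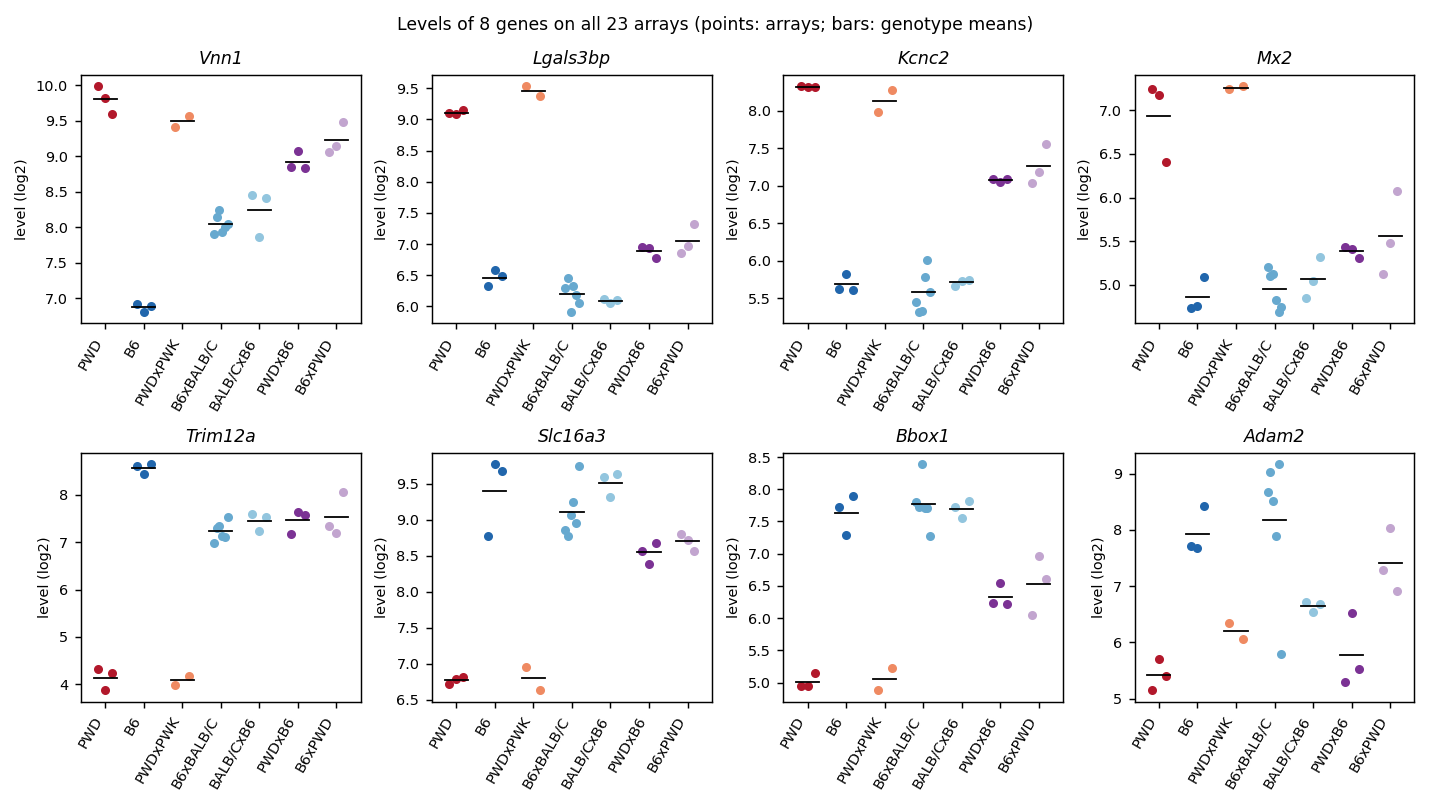
Log2 levels of 8 genes on each of the 23 arrays, by genotype, with a bar at each genotype mean. The PWD and PWDxPWK arrays lie apart from the B6, B6xBALB/C and BALB/CxB6 arrays in 7 of the panels, while in Adam2 B6xBALB/C replicate 6 and the 3 BALB/CxB6 arrays lie near them.

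Genes of the interferon response stood higher in PWD. Of 37 genes on the list, 31 were on the array, 7 of those were too dim and 24 were tested, of which 13 were called higher and 1 lower in PWD, with 21 positive differences. Over all genes tested the shares were 10.4% higher and 8.04% lower. The median of the list was 0.57, beside 0.04 over all genes. The mean of the list relative to all arrays was 0.50, 0.52 and 0.34 on the PWD arrays and -0.10, -0.12 and -0.10 on the B6 arrays.

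After Mx2, the members with the smallest p were Irf7, Ddx58 and Herc6. Irf7, the transcription factor that drives the interferon genes, was at 7.23, 7.27 and 7.54 in PWD and at 6.29, 6.19 and 6.40 in B6 (difference 1.05, SE 0.113, adjusted p = 6.22e-07). Ddx58, the RNA sensor RIG-I, was at 7.85, 7.97 and 7.70 in PWD and at 6.80, 6.78 and 6.66 in B6 (difference 1.09, SE 0.117, adjusted p = 6.22e-07). Herc6, which attaches ISG15 to proteins in mice, differed by 1.21 (adjusted p = 3.38e-06). The groups did not overlap for any of these genes. Other effectors and sensors called higher were Bst2 (1.06), which tethers budding virions, Xaf1 (1.04), Ddx60 (0.96), Ifitm3 (0.73), which restricts viral entry, Gbp3 (0.71), Oas1a (0.62), an oligoadenylate synthetase, and Parp14 (0.53). Irf9 (0.75) and Stat2 (0.56), which together form part of the complex that binds interferon-stimulated elements, rose too. The exception in direction was Ifi27, at 7.80, 7.68 and 7.56 in PWD and 8.49, 8.71 and 8.82 in B6 (difference -1.0, adjusted p = 0.000262). Not all members passed the test: Rsad2 differed by 0.44, Ifih1 by 0.34, Usp18 by 0.32, Oasl2 by 0.25, Zbp1 by 0.02, Oas2 by -0.02 and Rnf213 by -0.22. Of 10 macrophage markers tested, 0 were called higher in PWD and 5 were called lower, as given below. Whether cell content contributes to the interferon differences was not tested.

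The start regions of these genes were read from RefSeq (GRCm38.p6, the B6 genome; the PWD sequence was not used here) as windows of 300 bases, with 250 before and 50 after the start. The core of the interferon-stimulated response element, GAAA followed by any 2 bases and GAAA again, was searched on both strands. It was present in 3.44% of 32851 windows and in those of 3.21% of 11671 tested genes. A window was found for 18 of the 24 interferon genes tested, and Mx2 had none. The motif was in 7 of 11 genes called higher in PWD (63.6%) and in 4 of 7 others of the list (57.1%), shares of similar size. The shorter motif TTCNNNGAA, a core of the gamma-activated site, was in 8.3% of all windows, in 3 of the 11 and in 0 of the 7. Of the windows with more than 1 match, 3 are printed to show where the motif lies, with the matches to the first motif in capitals, and that of Tap1, which holds no match to either motif, for contrast. They were chosen after the matches were seen. In Ddx60 the first bases of the matches lie at -53 and -19 from the start, in Oas1a at -20 and -14, and in Bst2 at -130 and -124, the last 2 pairs overlapping. The Oas1a and Bst2 windows also hold 1 match each to the second motif, which is not marked.
Ddx60, chr8:61927837-61928136, + strand: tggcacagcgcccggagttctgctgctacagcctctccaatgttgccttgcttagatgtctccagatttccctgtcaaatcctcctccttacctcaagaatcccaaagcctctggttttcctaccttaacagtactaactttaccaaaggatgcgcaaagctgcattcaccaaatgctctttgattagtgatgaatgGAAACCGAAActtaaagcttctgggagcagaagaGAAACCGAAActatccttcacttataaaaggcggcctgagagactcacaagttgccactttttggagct
Oas1a, chr5:120907476-120907775, - strand: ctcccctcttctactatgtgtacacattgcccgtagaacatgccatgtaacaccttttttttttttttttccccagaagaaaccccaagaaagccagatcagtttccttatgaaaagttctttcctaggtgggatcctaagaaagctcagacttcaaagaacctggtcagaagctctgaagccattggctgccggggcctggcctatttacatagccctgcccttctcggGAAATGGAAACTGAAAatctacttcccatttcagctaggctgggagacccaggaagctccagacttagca
Bst2, chr8:71537423-71537722, - strand: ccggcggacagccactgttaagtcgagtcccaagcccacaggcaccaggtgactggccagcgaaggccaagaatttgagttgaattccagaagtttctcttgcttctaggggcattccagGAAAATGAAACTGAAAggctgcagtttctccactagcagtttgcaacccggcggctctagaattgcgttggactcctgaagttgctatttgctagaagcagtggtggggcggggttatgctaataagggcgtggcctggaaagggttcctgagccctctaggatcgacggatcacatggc
Tap1, chr17:34187306-34187605, + strand: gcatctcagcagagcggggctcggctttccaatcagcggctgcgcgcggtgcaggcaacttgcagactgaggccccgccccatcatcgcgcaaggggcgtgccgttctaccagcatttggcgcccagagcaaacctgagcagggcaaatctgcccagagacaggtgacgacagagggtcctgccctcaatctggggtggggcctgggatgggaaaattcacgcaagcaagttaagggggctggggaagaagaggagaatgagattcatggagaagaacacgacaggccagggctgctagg

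The genes that cut and transport peptides for MHC class I were raised together in PWD, while those of the MHC chains themselves went several ways. On chromosome 17, Psmb9, Tap1, Psmb8 and Tap2 are neighbours among the tested genes. Psmb8 and Psmb9 encode subunits of the immunoproteasome, and Tap1 with Tap2 forms the transporter that brings peptides into the endoplasmic reticulum. Tap1 was at 8.48, 8.28 and 8.35 in PWD, against 6.53, 6.55 and 6.48 in B6 (difference 1.85, SE 0.0911, adjusted p = 1.65e-12). Tap2 was at 8.61, 8.33 and 8.37 in PWD, against 6.52, 6.70 and 6.38 in B6 (difference 1.90, SE 0.119, adjusted p = 1.27e-10). The strains lay far apart relative to the replicates for both. Psmb8 differed by 1.52 (SE 0.141, adjusted p = 6.64e-08) and Psmb9 by 1.49 (SE 0.124, adjusted p = 1.23e-08). The Tap1 window printed above overlaps that of Psmb9 on the opposite strand (chr17:34187281-34187580), so these genes start from a shared region. Of 16 list members tested, out of 20 on the array, 7 were called higher and 1 lower in PWD. The shares over all genes were 10.4% and 8.04%, and the median of the list was 0.22. Cd74 (0.97), the invariant chain, and H2-Ab1 (0.56), a class II chain, rose, as did H2-T24 (0.55). H2-Q10 was the member called lower, at 5.85, 5.51 and 5.50 in PWD and 7.28, 7.15 and 7.17 in B6 (difference -1.58, adjusted p = 1.23e-07). B2m, the shared light chain of class I, differed by 0.08, H2-Q4 by -0.01, H2-M3 by -0.37 and Tapbp by -0.07, none of them past the test. H2 genes are highly polymorphic and have close copies, so single members are uncertain.

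Among the tripartite-motif genes, 7 of 9 on the array were tested, 3 called higher and 1 lower, beside 10.4% and 8.04% of all genes. Trim12a was the only one called lower. Trim25 (0.63, adjusted p = 0.000266), which activates RIG-I, Trim6 (0.50, adjusted p = 0.0215) and Trim21 (0.49, adjusted p = 0.00535), a cytosolic antibody receptor, were called higher. Trim12c, a close copy of Trim12a, differed by 0.08 and Trim34a by 0.25. Without PWD replicate 1, PWD replicate 2, B6 replicate 1 or B6 replicate 2 the call of Trim6 was lost, with adjusted p between 0.0533 and 0.0833.

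**Figure D2:**
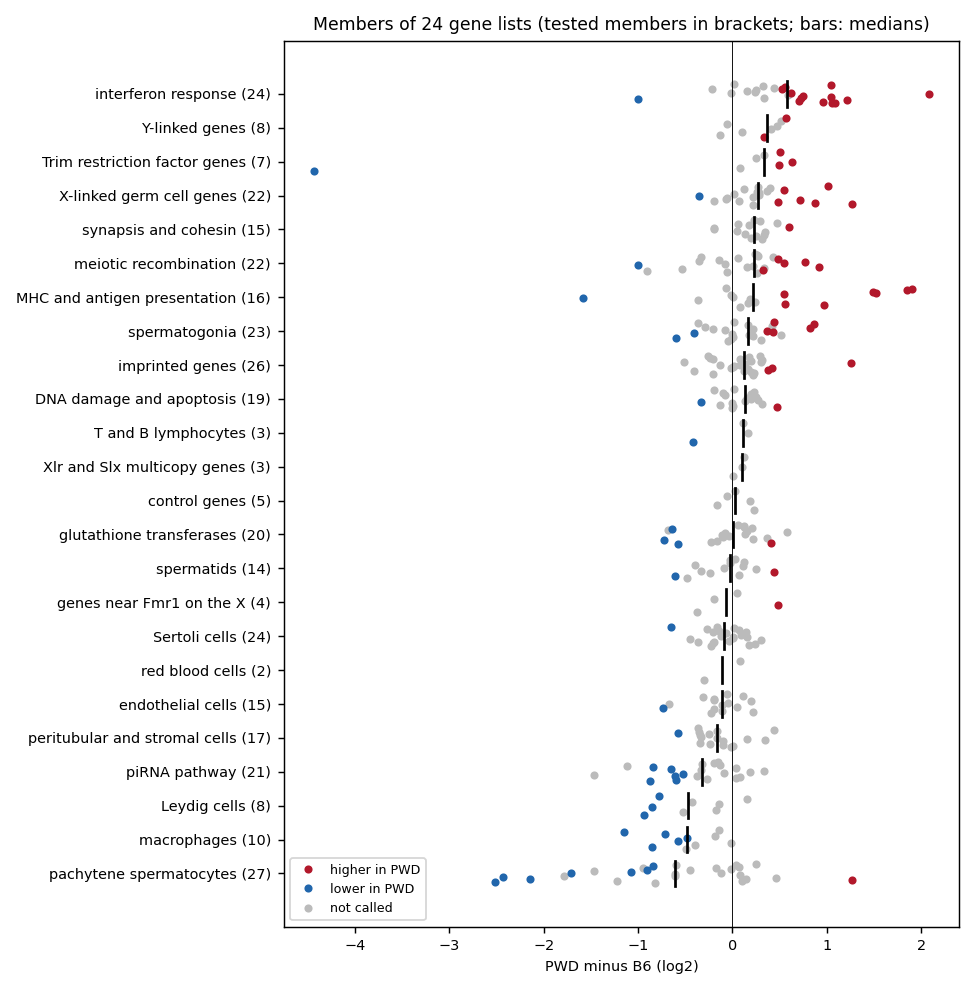
PWD minus B6 log2 difference of each tested member of 24 gene lists, ordered by the list median (bar), with called members in red (higher in PWD) and blue (lower in PWD). The interferon list has the highest median, 0.57, and the pachytene list the lowest, -0.61, while Trim12a stands alone at -4.43.

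Genes of germ cells differed by stage. Of 23 spermatogonial genes tested, 5 were called higher in PWD and 2 lower, beside 10.4% and 8.04% of all genes. The median was 0.17. The list mean relative to all arrays averaged -0.05 in PWD and -0.17 in B6, and B6 had the lowest average of the 7 genotypes. Stra8, which is switched on by retinoic acid as cells enter meiosis, stood at 8.81, 9.02 and 8.77 in PWD and 7.76, 7.88 and 8.39 in B6 (difference 0.86, SE 0.161, adjusted p = 0.000627). Ret, the receptor for GDNF on stem cells, stood at 8.28, 8.10 and 8.22 in PWD and 7.44, 7.41 and 7.31 in B6 (difference 0.82, SE 0.0989, adjusted p = 3.35e-06). The strains did not overlap for either gene. Zbtb16 (0.44), Lhx1 (0.43) and Lin28a (0.37), all genes of undifferentiated spermatogonia, were also called higher, whereas Kit (-0.41), a receptor of differentiating spermatogonia, and Ddx4 (-0.60), a helicase of most germ cell stages, were called lower. Etv5 (0.52) and Gfra1 (0.18) did not pass the test. The calls of Zbtb16 and Lhx1 were lost in some runs without an array, with adjusted p up to 0.0831 for Zbtb16 and up to 0.0671 for Lhx1. Between PWDxPWK and the laboratory F1s, described below, the list had a median of -0.03, with 1 member called higher and 2 lower. Ret differed there by 0.44 (adjusted p = 0.00371) and Stra8 by -0.10 (adjusted p = 0.771).

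Most genes of early meiotic prophase had small positive differences between the strains. In the F1 comparison described below, the medians were -0.03 for synapsis and cohesin and 0.01 for recombination. B6 had the lowest average of the 7 genotypes for both lists, -0.28 and -0.17 relative to all arrays, while PWD averaged -0.08 for each. Single genes differed in whether they were called there. Mei1 (0.58, adjusted p = 0.00666), Msh5 (0.36, adjusted p = 0.0366) and Mlh3 (-0.75, adjusted p = 0.00285) were called with the sign they had between the strains. Prdm9 (0.31, adjusted p = 0.23) and Syce2 (0.22, adjusted p = 0.52) were not. Of 15 genes of synapsis and cohesin, 13 had a positive difference and 1, Syce2 (0.60), a central element protein, was called higher, with a median of 0.23. Rad21l, a list member not called, has probe sets that disagree. In a fit of all probe sets they differed by 0.13 (adjusted p = 0.578) and 0.92 (adjusted p = 0.00275). Of 22 recombination genes, 5 were called higher and 1 lower, again with a median of 0.23. For both lists the shares over all genes were 10.4% higher and 8.04% lower. Mei1, needed to make meiotic double-strand breaks, stood at 8.64, 8.70 and 8.91 in PWD, against 7.63, 7.83 and 8.03 in B6 (difference 0.92, SE 0.141, adjusted p = 6.98e-05). Prdm9, the histone methyltransferase that places the breaks and a known hybrid sterility gene, stood at 8.22, 8.46 and 8.62 in PWD, against 7.80, 7.29 and 7.90 in B6 (difference 0.77, adjusted p = 0.00158). No PWD array overlapped a B6 array for either gene. Msh5 (0.55), Rec114 (0.48) and Dmc1 (0.32) were called higher as well. Mlh3, which acts late at crossover sites, was the one called lower, at 6.52, 6.88 and 6.70 in PWD and 7.88, 7.34 and 7.86 in B6 (difference -1.0, adjusted p = 0.000162). The call of Syce2 was lost without B6 replicate 2 (0.40, adjusted p = 0.174), PWD replicate 2 (adjusted p = 0.0833) or PWD replicate 3 (adjusted p = 0.108).

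Genes of pachytene spermatocytes stood lower in PWD. Of 27 tested, 7 were called lower and 1 higher, beside 8.04% and 10.4% of all genes, with 8 positive differences and a median of -0.61. The mean of the list relative to all arrays was -0.60, -0.48 and -0.65 in PWD and -0.05, 0.00 and 0.33 in B6. Those called lower were Adam2, Crisp2, Clgn, Mns1, Pdha2, Rpl10l and Tdrd5. Clgn, a chaperone of sperm surface proteins, stood at 7.59, 7.84 and 7.62 in PWD and 9.70, 9.65 and 10.13 in B6 (difference -2.14, SE 0.394, adjusted p = 0.000495). Mns1, a protein of the sperm flagellum, stood at 6.66, 6.82 and 6.35 in PWD and 8.42, 8.13 and 8.41 in B6 (difference -1.71, SE 0.166, adjusted p = 1.47e-07). The strains did not overlap for either gene. The SD over the PWD and B6 arrays was 0.14 and 0.27 for Clgn, and 0.24 and 0.16 for Mns1. Over the B6xBALB/C arrays, which enter the spread used in the test, it was 0.91 for Clgn and 0.24 for Mns1. Pdha2, a germ cell copy of a pyruvate dehydrogenase subunit, differed by -1.08 (adjusted p = 0.0329) and Rpl10l, a testis ribosomal protein, by -0.90 (adjusted p = 0.0425). Ldhc (-1.78), the sperm lactate dehydrogenase, and Piwil1 (-1.47) did not pass the test. The member called higher was the X-linked Ccnb3, a cyclin of early meiosis rather than of later stages, at 7.81, 8.01 and 8.19 in PWD and 7.03, 6.30 and 6.89 in B6 (difference 1.27, adjusted p = 1.84e-05). Of 14 spermatid genes tested, 1 was called higher, Odf1 (0.44), and 1 lower, Catsper2 (-0.61), counts near the shares over all genes. Their median was -0.03, and 8 more were too dim to test.

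The piRNA pathway, which silences transposons in germ cells, had called members in one direction. Of 21 genes tested, 6 were called lower in PWD and 0 higher, beside 8.04% and 10.4% of all genes, with a median of -0.32. Mov10l1, the helicase that starts piRNA production, stood at 10.09, 10.09 and 10.26 in PWD and 10.76, 10.65 and 10.85 in B6 (difference -0.61, SE 0.122, adjusted p = 0.00122). Asz1, a protein of the mitochondrial surface in germ cells, stood at 7.20, 7.49 and 7.58 in PWD and 8.38, 8.0 and 8.50 in B6 (difference -0.87, SE 0.212, adjusted p = 0.00606). Neither gene overlapped between the strains. The Tudor proteins Tdrd5 (-0.84) and Tdrd1 (-0.65), the helicase Ddx4 (-0.60) and the Piwi protein Piwil2 (-0.52) were the other members called lower. Tdrd6 (-1.12) and Piwil1 (-1.47) did not pass the test. The call of Piwil2 was lost in 5 of 6 runs without an array (adjusted p from 0.052 to 0.123), and that of Tdrd5 without PWD replicate 3 (adjusted p = 0.0913) or B6 replicate 3 (adjusted p = 0.0726).

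The comparison was also fitted with a pachytene covariate, a choice made after the data were seen. It was the mean, on each array, of the tested autosomal members of the pachytene list, without the X-linked Ccnb3. Adam2, Clgn, Crisp2 and Tdrd5 are members of that list, so their values enter the covariate and their smaller differences follow in part from its construction. The differences became -1.05 for Adam2, -1.08 for Clgn, -0.59 for Crisp2, -0.66 for Adam5, -1.83 for 1700006A11Rik, -1.55 for Gm10619 and -1.32 for 1700006J14Rik, all still called. Those of Asz1 (-0.45, adjusted p = 0.0677), Piwil2 (-0.17, adjusted p = 0.335), Tdrd5 (-0.24, adjusted p = 0.238) and Catsper2 (-0.15, adjusted p = 0.422) were no longer called, and that of Mov10l1 became -0.40. Calls were also lost, with differences closer to those without the covariate, for Atm (0.36), Gsta4 (0.31), Igf2r (0.27), Kcnq1 (0.35), Lhx1 (0.37) and Vcam1 (-0.80). Syce2 became 0.93. In all 3034 genes were called with the covariate, 1695 of them higher in PWD. The strains do not overlap in the pachytene mean, so a part of the strain difference and the covariate cannot be told apart.

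Of 22 X-linked germ cell genes tested, 6 were called higher and 1 lower in PWD, beside 10.4% and 8.04% of all genes, with 18 positive differences and a median of 0.27. The list mean was -0.14 to -0.01 in PWD and -0.61 to -0.25 in B6, and B6 had the lowest average of the 7 genotypes. In the F1 comparison the median was 0.03, with 3 called higher and 1 lower, and Fmr1 (0.07) and Tktl1 (-0.02) were not called. After Ccnb3 came Zcchc12 (1.01, SE 0.139, adjusted p = 1.78e-05), at 7.17, 6.98 and 6.80 in PWD and 6.03, 5.78 and 6.10 in B6. Dcaf8l (0.87), Magea3 (0.72), Tktl1 (0.55), a transketolase relative, and Fmr1 (0.48), an RNA-binding protein, followed, and Nxf3 (-0.35) was called lower. The Magea genes are near-identical copies, so Magea3 is uncertain, and Magea5 and Magea6 differed by -0.07 and -0.06. Of 15 genes on the array that lie near Fmr1, mostly microRNAs, 11 were too dim, and Fmr1 was the only one called among the 4 tested.

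Of 8 Y-linked genes measured, 2 were called higher in PWD, beside 10.4% of all genes. Eif2s3y, a translation factor subunit, was at 9.34, 9.35 and 9.41 in PWD and 9.06, 9.02 and 9.05 in B6 (difference 0.33, adjusted p = 0.0226). Zfy2, a zinc-finger gene needed for meiosis, was at 7.17, 7.28 and 7.17 in PWD and 6.77, 6.70 and 6.43 in B6 (difference 0.57, adjusted p = 0.0415). The groups did not overlap for either, but the call of Zfy2 was lost in each run that left out an array, with adjusted p from 0.0559 to 0.162, and that of Eif2s3y in 5 of 6 such runs, with adjusted p from 0.0503 to 0.0754. Zfy2 had an adjusted p of 0.0528 when each array was centred on its autosomal median. Zfy1 (0.51), its near copy, Usp9y (0.47), Uba1y (0.41), Sry (0.10), Uty (-0.06) and Kdm5d (-0.13) were not called. Of the multicopy Xlr and Slx genes 3 were tested, with differences of 0.01 to 0.12 and 0 calls.

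Few somatic cell markers were called other than those of macrophages and Leydig cells, for which B6 had the highest average of the 7 genotypes. The macrophage list averaged -0.12 in PWD and at most 0.02 in the other 5 genotypes, against 0.38 in B6. The Leydig list averaged -0.03 in PWD and at most 0.01 in the other 5 genotypes, against 0.43 in B6. Single arrays of other genotypes reached the B6 range given below. B6xBALB/C replicate 6 had 0.55 for the Leydig list, and PWDxB6 replicate 3 had 0.27 for the macrophage list. None of the 10 macrophage genes tested had a positive difference, 5 were called lower in PWD, beside 8.04% of all genes. The median was -0.49. Mrc1, the mannose receptor of resident macrophages, was at 6.76, 6.58 and 6.63 in PWD and 7.69, 7.82 and 7.90 in B6 (difference -1.15, SE 0.153, adjusted p = 1.24e-05). C1qb (-0.85), a complement component, Lyz2 (-0.71), lysozyme, Csf1r (-0.58), the receptor for the macrophage growth factor CSF1, and Cx3cr1 (-0.48) were called lower as well, while Cd68 differed by -0.01 and Tyrobp by -0.14. The list mean lay between -0.20 and -0.03 in PWD and between 0.19 and 0.49 in B6, without overlap. Of 8 Leydig cell genes, 3 were called lower: Cyp11a1 (-0.94), the first enzyme of steroid synthesis, Hsd3b6 (-0.85) and Vcam1 (-0.78). Their median was -0.47, and Star differed by 0.15. The list mean lay between -0.12 and 0.06 in PWD and between 0.25 and 0.54 in B6. Cyp17a1, an enzyme of androgen synthesis, differed by -0.52 without a call. The call of Cyp11a1 was lost without PWD replicate 2 (adjusted p = 0.0527), and that of Vcam1 without any of 5 arrays (adjusted p from 0.0683 to 0.155). The call of Lyz2 was lost without PWD replicate 1 (adjusted p = 0.062), B6 replicate 2 (adjusted p = 0.0621) or B6 replicate 3 (adjusted p = 0.06). That of Csf1r was lost without PWD replicate 1, PWD replicate 2 or B6 replicate 2 (adjusted p from 0.053 to 0.0571), and that of Hsd3b6 without PWD replicate 2 (adjusted p = 0.0563) or B6 replicate 3 (adjusted p = 0.0658). The PWD means of Lyz2 and Hsd3b6, both 5.01, were below the floor.

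Of 24 Sertoli cell genes tested 1 was called, Trf (-0.65, adjusted p = 0.00200), which codes for transferrin, and the median was -0.08. Of 17 peritubular and stromal genes 1 was called, Nr2f2 (-0.58), and of 15 endothelial genes 1, Eng (-0.74), with medians of -0.16 and -0.11. Among 3 lymphocyte genes Cd3e (-0.42) was called, and neither of the 2 red blood cell genes was. The 5 control genes had 0 calls and a median of 0.03. Among all genes tested 18.4% were called.

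Of 26 imprinted genes 3 were called, all higher in PWD, a share near that of all genes (10.4%). Nnat, a paternally expressed proteolipid gene, stood out at 7.40, 7.58 and 7.48 in PWD, against 6.13, 6.31 and 6.25 in B6 (difference 1.26, SE 0.125, adjusted p = 1.88e-07). The 3 PWDxB6 hybrid arrays averaged 6.41 with an SD of 0.16, and the 3 B6xPWD arrays 7.33 with an SD of 0.09, so that each cross lay near the strain of its father. Kcnq1 (0.42) and Igf2r (0.38) were the others called, but Kcnq1 lost its call in 3 runs without an array (adjusted p up to 0.0901) and Igf2r without PWD replicate 3 (adjusted p = 0.0648). Of 20 glutathione transferases Gsta4 (0.41) was called higher and Gstm2 (-0.72), Gstt3 (-0.64) and Gsta3 (-0.58) lower, with a median of 0.01, a count near the 18.4% called over all genes. Gsta4 lost its call in 8 of 17 alternatives (adjusted p up to 0.188). Of 19 genes of DNA damage and apoptosis, Atm (0.47), the kinase that signals double-strand breaks, was called higher and Bcl2l1 (-0.33), an inhibitor of apoptosis, lower, and both calls were lost in several runs without an array.

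PWDxPWK against the laboratory F1s, which share no array with the strain comparison, gave a second set of differences for the same genes. Both comparisons came from the same fit, with the spread of each gene estimated over all 23 arrays, so their calls are not independent. PWD is a parent of PWDxPWK, and B6 a parent of both laboratory F1s. A difference in the sequence that probes bind could therefore return in the F1s, which was not tested. The contrast was PWDxPWK minus the mean of B6xBALB/C and BALB/CxB6. In it 1620 genes were called (11%), 860 higher (5.83%) and 760 lower (5.15%) in PWDxPWK. Genes called in both comparisons with the same sign numbered 1130, which is 41.6% of the PWD minus B6 calls and 69.8% of the F1 calls, with 609 higher and 521 lower. Of the PWD minus B6 calls, 2595 (95.4%) had the same sign in the F1 comparison, beside 74.7% of all genes. Across all genes the 2 differences correlated at r = 0.79 (14745 genes), as a description, since genes are not independent replicates. The F1 comparison rests on 2 PWDxPWK arrays, and leaving out either gave 777 or 775 calls.

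Most of the largest differences returned in the F1s. Kcnc2 differed by 2.63 between PWD and B6 and by 2.48 between the F1s, Lgals3bp by 2.65 and 3.31, Gask1a by 2.19 and 2.39, Bbox1 by -2.62 and -2.68, Slc16a3 by -2.63 and -2.52, and Trim12a by -4.43 and -3.26. For each of these 6 genes the 5 PWD and PWDxPWK arrays lay wholly apart from the 12 B6, B6xBALB/C and BALB/CxB6 arrays, as they did for 1254 genes in all (8.5%), 719 with the PWD and PWDxPWK arrays above (4.88%) and 535 below (3.63%). Of the 24 interferon genes tested, 13 had all 5 arrays above and 1, Ifi27, below. In the F1 comparison 16 of them were called higher and 1 lower, with a median of 0.76, beside 0.02 over all genes. The list mean was 0.59 and 0.55 on the PWDxPWK arrays, against -0.25 to -0.11 on the B6xBALB/C and -0.15 to -0.13 on the BALB/CxB6 arrays.

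Most pachytene genes called between the strains were not called between the F1s. The F1 difference was -1.22 for Adam2 (adjusted p = 0.150), -0.90 for Clgn (adjusted p = 0.141), -0.95 for Crisp2 (adjusted p = 0.411) and -1.42 for 1700006A11Rik (adjusted p = 0.174), and Pdha2, Rpl10l and Tdrd5 were not called either. Mns1 was the exception among the 7 called lower in PWD, with -1.51 (adjusted p = 6.39e-07). The pachytene mean was -0.29 and -0.27 in PWDxPWK and -0.31 to -0.19 in BALB/CxB6. In B6xBALB/C it spread from -0.66, in replicate 6, to 0.95, and the next lowest replicate had 0.26. Without B6xBALB/C replicate 6 the F1 comparison had 2003 calls. The macrophage list had a median of 0.06 and the Leydig list one of -0.11 in the F1 comparison, with Mrc1 (-0.71, adjusted p = 0.00246) the one macrophage gene called. The difference between the F1 and the strain comparison was not called for any of these pachytene, macrophage or Leydig genes.

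**Figure D3:**
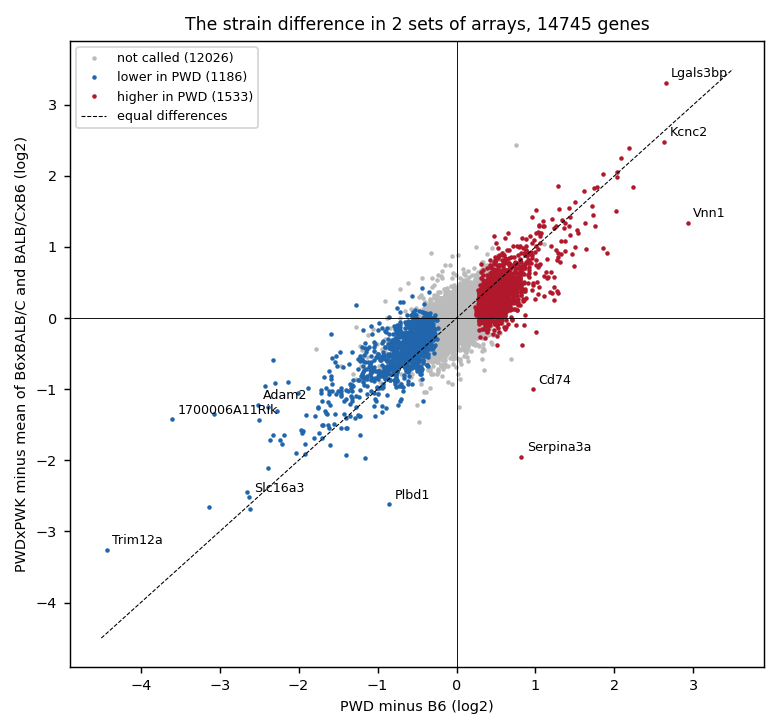
PWD minus B6 log2 difference (horizontal axis) against PWDxPWK minus the mean of the laboratory F1s (vertical axis) for 14745 genes, with genes called in the strain comparison in colour and the line of equal differences dashed. Most coloured genes lie in the quadrants of equal sign, while Cd74 and Serpina3a lie in the quadrant of opposite sign.

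The difference between both comparisons, tested as an interaction, was called for 9 genes (0.061%), with 845 at an unadjusted p under 0.05. Vnn1 differed by 2.93 between PWD and B6 and by 1.34 between the F1s (interaction 1.58, SE 0.198, adjusted p = 0.000225). Tap1 (interaction 0.86, adjusted p = 0.00209) and Tap2 (0.98, adjusted p = 0.0119) were likewise less far apart between the F1s. In all 3 genes the PWDxPWK level was close to that of PWD, and the laboratory F1s lay above B6: Tap1 averaged 8.37 in PWD and 8.26 in PWDxPWK, and it averaged 7.29 in B6xBALB/C, 7.25 in BALB/CxB6 and 6.52 in B6. Cd74 went opposite ways, 0.97 between the strains and -1.0 between the F1s (interaction 1.98, adjusted p = 0.000325), its mean being 6.33 in PWD, 6.15 in PWDxPWK, 7.0 in B6xBALB/C, 7.30 in BALB/CxB6 and 5.35 in B6. Serpina3a, a serine protease inhibitor, showed the same pattern (0.82 and -1.95, interaction 2.77, adjusted p = 1.04e-05). In all, 5 genes were called in both comparisons with opposite signs.

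The reciprocal hybrids were set beside the strains as levels only, without a test, since a hybrid carries an autosome set from each strain. The interferon list mean was -0.17 to -0.11 in PWDxB6 and -0.14 to -0.08 in B6xPWD, close to the B6 range of -0.12 to -0.10 and below the PWD range of 0.34 to 0.52. With 3 arrays in each cross, Mx2 averaged 5.39 ± 0.07 (SD) in PWDxB6 and 5.56 ± 0.48 in B6xPWD, beside 6.94 ± 0.46 in PWD and 4.86 ± 0.20 in B6. Ddx58 averaged 6.71 ± 0.08 (SD) in PWDxB6 and 6.63 ± 0.19 in B6xPWD, beside 7.84 ± 0.13 in PWD and 6.75 ± 0.07 in B6. Other genes lay between the strains: Kcnc2 averaged 7.08 in PWDxB6 and 7.26 in B6xPWD, beside 8.32 in PWD and 5.69 in B6, and Bbox1 averaged 6.33 and 6.54 in those crosses, beside 5.01 in PWD and 7.64 in B6. Tap1, at 7.41 and 7.34, lay between the strains as well.

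**Figure D4:**
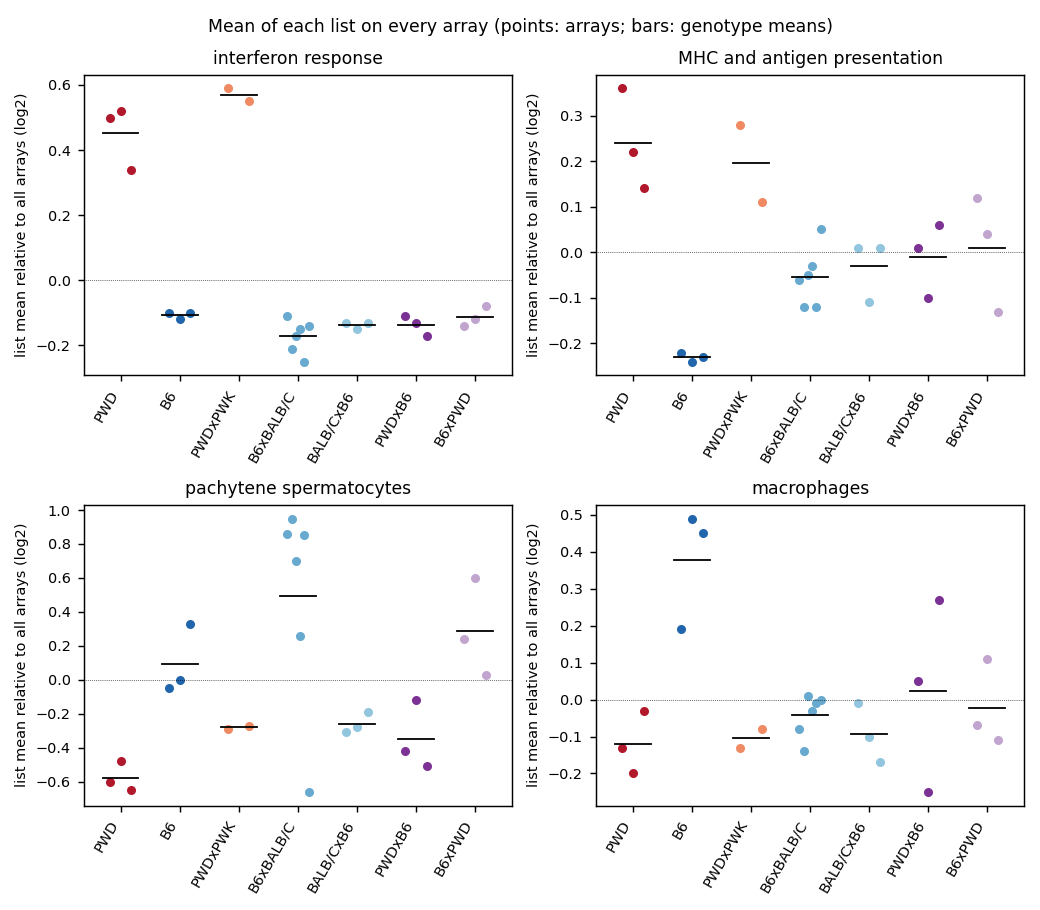
Mean of the members of 4 gene lists on each of the 23 arrays, relative to the mean of all arrays (log2), with a bar at each genotype mean. The interferon list separates PWD and PWDxPWK from all other arrays, the pachytene list spreads from -0.66 to 0.95 within B6xBALB/C, and the macrophage list lies higher in B6 (0.19 to 0.49) than in PWD (-0.20 to -0.03).

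Some called genes were neighbours. Among genes ordered along each chromosome, 8 runs of at least 4 adjacent tested genes were called in the same direction, 5 higher and 3 lower in PWD. They are named here after their values were seen. One was the antigen-processing block of chromosome 17. Another was a group of histone genes on chromosome 13, H2bc3 (1.38), H2ac4 (1.01), H1f1 (1.05) and H2bc1 (0.88), close copies whose probes may cross-hybridize and of which H2ac4 had an F1 difference of -0.19. On chromosome 10, Tjp3 (0.29), Pip5k1c (0.52), Cactin (0.51), Tbxa2r (0.88) and Gipc3 (0.53) were called higher. On chromosome 9, Rnf7 (-2.36), a subunit of ubiquitin ligases, Rasa2 (-0.33), Zbtb38 (-0.83) and E030011O05Rik (-0.65) were called lower, and on chromosome 7 the folate receptor genes Folr2 (-0.61) and Folr1 (-0.50) lay in a run called lower. Of the genes with more than 1 probe set, 512 were tested and 129 had a called probe set. In 30 of these more than 1 probe set was called, and 0 had probe sets called in opposite directions.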

How the data were processed

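The authors deposited a table of log2 values for 25690 probe sets on 23 arrays, with log2 inferred from their range (1.17 to 13.96). How they were background-corrected, normalized or centred is not given in the sources used here, and signal over background could not be judged. Per the series' design text, 1 PWDxPWK array was dropped by the submitters. The platform annotation gave 1 gene symbol to 20777 probe sets, several to 232 and none to 4681, and of these only the first were named. For 564 genes with more than 1 probe set, the one with the highest mean stood for the gene. Dim genes, the lowest 25% by mean (up to 5.125), were not tested. R 4.3.3 and limma 3.58.1 fitted 7 genotype means to all 23 arrays (16 residual degrees of freedom), without covariates, and adjusted p-values by Benjamini-Hochberg over 14745 genes. The fit was tested on simulated data.

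Members and gene lists (24 lists, 511 genes, 398 on the array, 344 tested) were chosen with earlier results of these data known. Genes were named as the 12 highest and 12 lowest called differences without overlap of the strains, up to 4 members called per list by smallest p, the Y-linked genes and Prdm9. Other names were chosen after their values were seen. Chromosomes and start regions came from RefSeq GRCm38.p6. The alternatives were other dim filters, normalization, centring, probe set rules, variance models, array weights and a replicate block. Others were a fit of the compared groups alone, each array of those groups left out in turn, and the F1 reference groups singly. A pachytene covariate and strain means below the floor set to it were chosen after seeing the data. The number of arrays limits the precision. Plots used matplotlib 3.10.9 under Python 3.11.15.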

Additional observations from a re-analysis of the deposited data

Results flagged for a closer look

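In 9 genes the difference between PWD and B6 departed from that between PWDxPWK and the laboratory F1s, by the limma interaction at a Benjamini-Hochberg adjusted p under 0.05. The interaction was positive for Serpina3a (2.77), Cd74 (1.98), Plbd1 (1.77), Vnn1 (1.58), Tap2 (0.98), Fam181b (0.89) and Tap1 (0.86), and negative for Smyd1 (-0.81) and Oasl2 (-0.74). Plbd1, a phospholipase B-like gene, differed by -0.85 between the strains and by -2.62 between the F1s, and Smyd1, a muscle methyltransferase, by -1.16 and -0.35. Oasl2, an interferon-induced gene, differed by 0.25 between the strains (adjusted p = 0.0729) and by 1.00 between the F1s (adjusted p = 1.06e-07).

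Single arrays of B6xBALB/C lay far from the other 5 for 10 of 105 genes and list means examined, by Dixon's test (critical value 0.625), where chance gives about 1 in 20. Replicate 6 was lowest for 1700006A11Rik (5.82), Catsper2 (6.79), the mean of recombination genes (-0.34) and the mean of spermatid genes (-0.13), and highest for Ret (8.10), Scn3b (5.14) and the mean of Leydig genes (0.55). The others were Mrc1 in replicate 3 (7.73), S100b in replicate 5 (5.04) and Uty in replicate 1 (7.49). The mean of pachytene genes, -0.66 in replicate 6, was not among the 10.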

How the results depend on the processing

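The PWD minus B6 count of 2719 ranged from 1802 to 2341 when 1 array was left out, that of the F1 comparison, 1620, from 775 to 2003, and the 9 interaction calls from 5 to 17. With the other settings the first lay between 2193 (lowest 50% of genes left out) and 3598 (array weights), and the second between 1152 (BALB/CxB6 as the only reference) and 2026 (replicate block). With centring on the autosomal median, 1315 genes were higher and 1286 lower in PWD. The replicate number as a block gave 3280 calls for PWD minus B6 and 22 for the interaction, the cause of which was not tested. Deviations of PWD and B6 arrays with the same number correlated at -0.015, -0.223 and -0.001. Those with different numbers correlated at -0.178 to 0.191. With 3 arrays a strain, these values cannot decide whether the numbers pair the samples. Every list median kept its sign under quantile normalization and centring, except that of glutathione transferases, at -0.01 with centring and 0.01 without it. Of 75 named genes that were called, 52 were called under every alternative and 23 lost the call in 1 or more. Sry, not called, ranged from -0.01 (without B6 replicate 3) to 0.20 when 1 array was left out. Signal over background cannot be judged from these values.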
